A study of Rattus norvegicus with 4 samples.

Results

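The genes described here make and load the peptides that MHC class I molecules show on the cell surface. They are the immunoproteasome subunits Psmb8, Psmb9 and Psmb10, the proteasome activator subunits Psme1 and Psme2, the peptide transporter subunits Tap1 and Tap2, the loading chaperone Tapbp, the class I light chain B2m and the class I transactivator Nlrc5. Members were the probe sets whose single gene symbol in the platform annotation was one of these 10 names, which gave 13 of the 31042 probe sets tested, at least 1 for each gene. Levels were measured on Affymetrix rat arrays in epithelium cut out by laser microdissection. Of the 4 arrays, 2 held junctional epithelium, the collar of gingival epithelium that seals against the tooth, and 2 held peri-implant epithelium, which surrounds an implant of titanium alloy. The animals were male rats of the Sprague-Dawley strain, aged 4 weeks when operated on, and the labels give tooth extraction and implant placement as the treatment of every sample, the junctional ones included. The 20 rats of the study were killed 4 weeks after the implant replaced an upper first molar. The sources used here do not give how many rats went into each sample or whether the arrays of a group came from separate animals, so p-values measure only the spread between these arrays, which may be technical.

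Cells present fragments of their own cytosolic proteins on MHC class I so that CD8 T cells can survey them. In the standard proteasome the cutting is done by constitutive catalytic subunits, and interferon-gamma replaces these with Psmb8, Psmb9 and Psmb10, which favour peptides with ends that class I grooves bind. Tap1 and Tap2 carry the peptides into the endoplasmic reticulum, Tapbp (tapasin) holds empty class I next to the transporter, and B2m completes the class I molecule. Keratinocytes of stratified epithelia express this pathway at a basal level, leukocytes express it strongly, and interferons raise it in both.

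The promoters of these genes are shown first because most carry 1 short element in common. Promoter windows of 300 bases, from 250 before to 50 after the start that the table uses for each gene, were taken from RefSeq for the rat assembly GRCr8 and matched 9 of the 10 genes, all but Nlrc5. The core of the interferon-stimulated response element, GAAA and GAAA with any 2 bases between, was searched on both strands. It stood in 7 of the 9 windows, against 3.92% of 33469 windows in the table. In the stretches below, read 5′ to 3′ in the direction of the gene, capitals mark the match; on Psmb8 and Tap1 it lies on the opposite strand and reads in reverse.
Psmb8, chr20:4657016-4657045: gtgctgtggcTTTCGCTTTCacttccttgt
Psmb10, chr19:50743275-50743390: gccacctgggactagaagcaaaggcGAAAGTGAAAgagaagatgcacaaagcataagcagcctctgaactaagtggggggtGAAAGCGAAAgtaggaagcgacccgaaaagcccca
Psme2, chr15:33052785-33052814: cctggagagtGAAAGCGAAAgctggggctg
Tap1, chr20:4668630-4668689: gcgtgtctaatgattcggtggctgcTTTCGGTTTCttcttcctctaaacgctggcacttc
Tap2, chr20:4652303-4652362: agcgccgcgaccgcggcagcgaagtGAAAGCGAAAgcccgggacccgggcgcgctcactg
Tapbp, chr20:4967881-4967910: tttgaggGAAAATGAAAGTGAAAggaaaca
B2m, chr3:129549155-129549214: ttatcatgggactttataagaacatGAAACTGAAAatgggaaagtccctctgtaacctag

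The element was written with the same 10 letters, GAAAGCGAAA, in Psmb8, Psmb10, Psme2 and Tap2, a spelling that 24 of the 33469 windows hold (0.0717%); this spelling was singled out after it was seen. Psmb10 held 2 matches and Tapbp 2 that overlap each other. The first base of the matches lay from position -150 relative to the start, in B2m, to position -4, in Psmb8. For 6 of the 9 genes the table's start lies inside the annotated gene, by 9 bases (Psme1) to 304 bases (Psme2), so that the matches of Psmb8, Psme2 and Tapbp lie within the annotated genes. From the outermost annotated start, the match of B2m lies at -56. No match stood in the windows of Psmb9 and Psme1. Psmb9 and Tap1 point away from each other with 408 bases between their annotated ends, and the match in the Tap1 window lies between them, 111 bases from the Tap1 start and 287 bases from the outermost annotated start of Psmb9. It lies outside the Psmb9 window, which was drawn from a start 48 bases further into that gene.

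Of the other motifs searched on both strands, kappaB, searched by its consensus, stood in the windows of B2m, Tap1 and Tapbp, against 4.18% of all windows. The inverted CCAAT box ATTGG, the core of the Y box of class I promoters, stood in those of B2m, Psmb8 and Psmb9, against 37.5% of all windows. No match of these motifs overlapped a match of the element core. A match is a description of letters, and no match says only that these letters are not in the window.

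**Figure D1:**
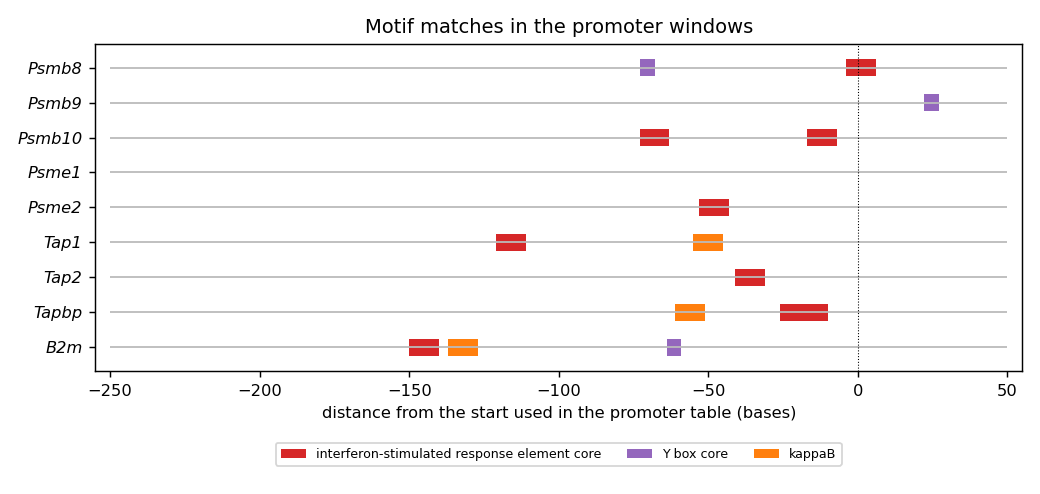
Matches of the 3 motifs (coloured bars) in the promoter windows of 9 members (rows), by distance in bases from the start used in the promoter table (dotted line at 0). The element core (red) appears in 7 rows and is missing from Psmb9 and Psme1; Psmb10 has 2 separate matches.

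By position, 5 members sit in the MHC on chromosome 20. In GRCr8, Tap2 lies at 4638257 to 4652296, Psmb8 at 4654068 to 4657049, Tap1 at 4658171 to 4668543 and Psmb9 at 4668952 to 4674421. They are the only 4 annotated genes of that 36.2 kb stretch. Tapbp, at 4958821 to 4967958, begins 284 kb further on. Psme1 (33038962 to 33041849) and Psme2 (33048452 to 33053055) both lie on chromosome 15, 6602 bases apart. Psmb10 (50740808 to 50743292) and Nlrc5 (10483601 to 10587223) lie far apart on chromosome 19, and B2m (129549236 to 129555354) lies on chromosome 3. All are protein-coding.

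In the fit with an intensity trend described below, 6 of the 10 members had more transcript in peri-implant than in junctional epithelium. Psmb8 and Psmb9, Tap1, Tapbp, B2m and Psme2 rose, by 1.39-fold for Psme2 up to 2.83-fold for Tap1. Psmb10 (1.05-fold), Psme1 (1.12-fold), Nlrc5 (1.69-fold) and Tap2 (below background on every array) did not pass the test. Values are log2 signals as deposited, given for junctional arrays 1 and 2 and then peri-implant arrays 1 and 2. Differences are peri-implant minus junctional on the log2 scale with their standard error (SE), from limma with an intensity trend and a robust prior and with Benjamini-Hochberg adjustment over all probe sets. Of the 13 member probe sets, 7 were higher at an adjusted p under 0.05 and 0 lower (0 lower at an unadjusted p under 0.05 too), where 4.74% of all probe sets were higher and 4.16% lower. Of the 10 member probe sets above background on all 4 arrays, 7 were higher, where 7.49% of such probe sets were. Lower calls took 7.23% of them. The background level is 6.42, taken as the top value that any of 27 Bacillus control probe sets reached. Both peri-implant arrays lay above both junctional arrays for 10 of the 13, as for 27.8% of all probe sets (below for 0, against 25.4%). Among these 10 were Tap2 and the dimmer Psme1 probe set, which lay below background on every array. Counted by gene with the brightest probe set, 6 of the 10 were higher and 0 lower, against 6.6% and 4.8% of genes.

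These calls depend on how the spread is estimated from 2 arrays a group. With the default prior of limma, 0 of the 13 passed (smallest adjusted p = 0.16, 5 at an unadjusted p under 0.05), as did 0 of all 31042 probe sets, of which 5247 had an unadjusted p under 0.05. With an intensity trend but 1 array left out, 0 members passed without junctional array 1 or without junctional array 2. Without peri-implant array 1 the calls were B2m and Psmb9, and without peri-implant array 2 both probe sets of B2m.

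**Figure D2:**
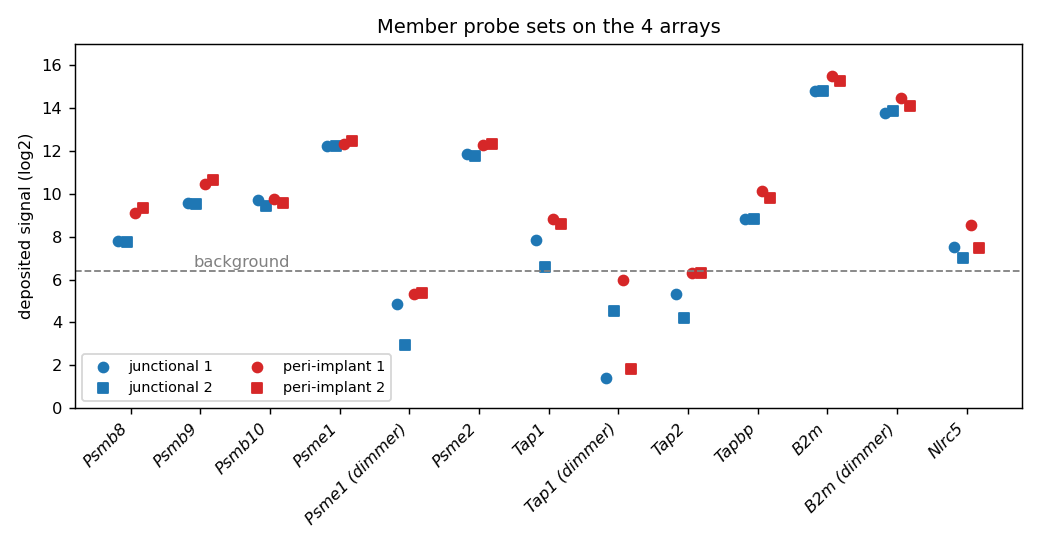
Deposited log2 signal (vertical axis) of the 13 member probe sets on the 4 arrays, junctional in blue and peri-implant in red, with circles for array 1 and squares for array 2; "dimmer" marks the weaker probe set of a gene and the dashed line the background level of 6.42. For Psmb8, Psmb9, Tapbp and B2m both red points lie above both blue ones, for Psmb10 and Nlrc5 the colours overlap, and 3 probe sets stay below the line on every array.

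Of the catalytic subunits, Psmb8, the chymotrypsin-like subunit of the immunoproteasome, read 7.79 and 7.77 on the junctional arrays and 9.09 and 9.34 on the peri-implant arrays. Both peri-implant arrays stood at least 1.30 above both junctional ones, which were 0.02 apart. Psmb8 rose by 1.44 (SE 0.21, 2.71-fold, adjusted p = 0.00311 with limma and an intensity trend, 0.16 with the default prior). Psmb9, which replaces the caspase-like subunit, read 9.56 and 9.54 and then 10.44 and 10.67. It rose by 1.01 (SE 0.13, 2.01-fold, limma adjusted p = 0.00213, 0.193 with the default prior), again with junctional arrays 0.02 apart. Its peri-implant arrays were 0.23 apart.

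Psmb10, which replaces the trypsin-like subunit, read 9.73 and 9.46 on the junctional arrays, against 9.76 and 9.58 on the peri-implant arrays. The groups overlapped, since peri-implant array 2 lay below junctional array 1. Its difference was 0.07 (SE 0.16, 95% confidence interval from -0.28 to 0.42, limma adjusted p = 0.833). For comparison, the intervals ran from 0.98 to 1.9 for Psmb8 and from 0.71 to 1.31 for Psmb9; differences between members were not tested in the fit. Psmb10 carries the same GAAAGCGAAA spelling as Psmb8.

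The constitutive subunits that these replace were compared within each array, which shows only whether the partners changed unequally. Psmb8 minus Psmb5 gave -3.72 and -3.78 for the junctional arrays, against -2.71 and -2.33 for the peri-implant ones. It was higher by 1.23 in the peri-implant arrays, with no overlap (exact permutation test, two-sided, p = 0.333, the smallest that 2 against 2 arrays can give). Psmb10 minus Psmb7 gave -2.63 and -2.83 for the junctional arrays, against -2.64 and -2.73 for the peri-implant ones, a difference of 0.04 with overlapping groups (exact permutation test, two-sided, p = 1.0) that was -0.053 without junctional array 2. The partner of Psmb9, Psmb6, was not used because its probe set carries 2 gene symbols.

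Psmb5 itself read 11.51 and 11.54 and then 11.81 and 11.67, and Psmb7 12.36 and 12.28 and then 12.40 and 12.30. Neither passed with an intensity trend (limma adjusted p = 0.186 and 0.879), though 1 of them had an unadjusted p under 0.05. Of the 11 other subunits of the 20S core, 0 passed with either prior, and 3 had an unadjusted p under 0.05 in the trend fit and 0 in the default fit. Their median difference was 0.03, beside 0.05 over all 14217 genes, each gene taken by its brightest probe set. The core subunits with the largest differences were Psma1 (0.31) and Psma7 (0.30, adjusted p = 0.0518), followed by Psma3 (0.27) and Psmb4 (0.18). In the 19S particle, which unfolds proteins for the core, 0 of 23 passed with either prior by the brightest probe set, and 7 had an unadjusted p under 0.05 in the trend fit and 0 in the default fit. Its median was 0.10, with Psmd1 at 0.51, Psmd5 at -0.47, Psmd10 at 0.40 and Adrm1 at -0.31. Of its 9 other probe sets, 2 were called higher, both of Psmd14 (0.69 and 0.41), and 1 lower, of Psmd7 (-0.34).

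Psme1 and Psme2 together form PA28, the ring that opens the core. Psme2 read 11.88 and 11.76 on the junctional arrays, against 12.27 and 12.32 on the peri-implant arrays, with no overlap. It rose by 0.47 (SE 0.09, limma adjusted p = 0.00986, 0.309 with the default prior), but did not pass after each array was centred on its median. Psme1 read 12.23 on both junctional arrays and 12.34 and 12.45 on the peri-implant arrays. Its groups did not overlap either, with 0.11 between them, and its difference of 0.17 (SE 0.08, 95% confidence interval from -0.02 to 0.35) did not pass (limma adjusted p = 0.243). The dimmer Psme1 probe set read 4.84, 2.94, 5.34 and 5.35, below background on every array.

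Among 8 measured genes for assembly, other activators and inhibitors, 1 was called higher and 0 lower, against 6.6% and 4.8% of all genes. That gene was Ecpas, a proteasome scaffold, whose brightest probe set differed by 0.49 and another probe set by -1.08, so that its direction is not settled. Psmf1, an inhibitor of the core, differed by 0.48 (limma adjusted p = 0.0813), and the assembly chaperones Psmg4 and Psmg2 by 0.32 and -0.28. Pomp, which matures both kinds of core and was picked after its value was seen, read 12.12 and 12.34 (junctional) and 12.23 and 12.28 (peri-implant), within the spread of the junctional ones.

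**Figure D3:**
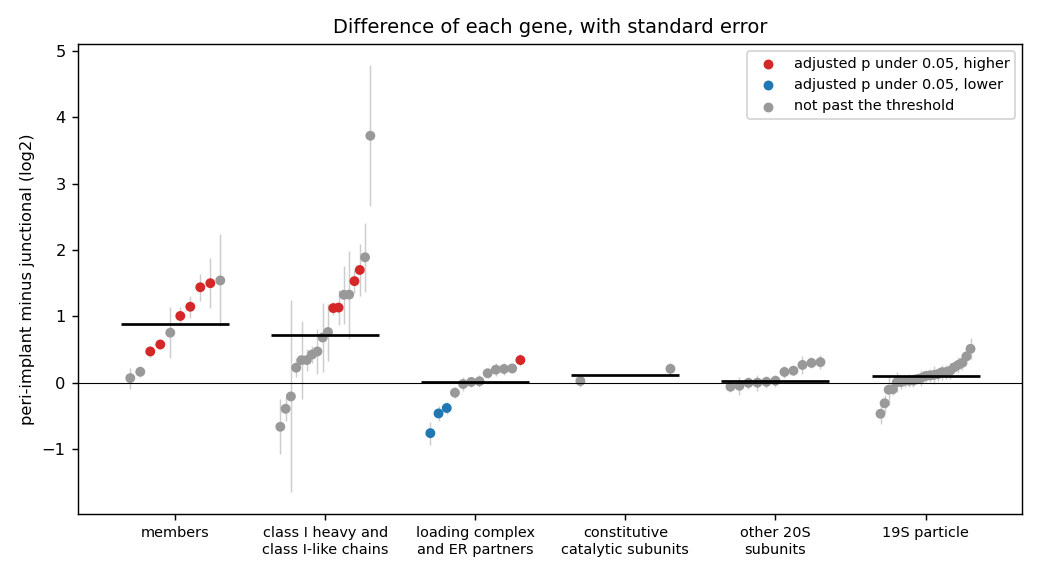
Difference between epithelia (peri-implant minus junctional, log2, vertical axis) for each gene by its brightest probe set, with SE bars and black lines at the group medians; colours mark genes that passed the limma test. Members (median 0.88) and class I heavy and class I-like chains (median 0.72) spread upward, while the constitutive and other 20S subunits and the 19S particle lie near 0 with none past the threshold. With signals under the background level set to that level, the medians of members and of class I chains were 0.67 and 0.45.

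The transporter subunits gave the least even readings. The brighter Tap1 probe set read 7.83 and 6.59 on the junctional arrays, against 8.85 and 8.58 on the peri-implant arrays. The groups did not overlap, but the junctional arrays were 1.25 apart and array 2 stood close to background. Tap1 rose by 1.5 (SE 0.37, 2.83-fold, limma adjusted p = 0.0367, 0.323 with the default prior), by 0.88 without junctional array 2 and by 2.13 without junctional array 1. It did not pass with a pseudocount of 32 or when its probe sets were averaged. The dimmer Tap1 probe set read 1.42, 4.54, 6.0 and 1.80, below background throughout, and gives no direction. Tap2 read 5.34 and 4.2 on the junctional arrays, against 6.29 and 6.33 on the peri-implant arrays, all below the background level, so no fold is given (limma adjusted p = 0.204).

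Tapbp, the chaperone that bridges the transporter and class I, read 8.81 and 8.82 on the junctional arrays, against 10.12 and 9.80 on the peri-implant arrays. Junctional arrays lay 0.02 apart and peri-implant arrays 0.32 apart, with 0.98 between the groups. Tapbp rose by 1.15 (SE 0.16, 2.21-fold, limma adjusted p = 0.0034, 0.191 with the default prior).

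Of 12 measured partners of the loading complex and the endoplasmic reticulum, 1 was higher and 3 were lower, against 6.6% and 4.8% of all genes. Their median was 0.02. Canx (calnexin), which folds new class I chains, fell by 0.38 on its brightest probe set, with its other probe sets at -0.05 and -0.12. Uggt1, the folding sensor that returns unfinished glycoproteins for another round, fell by 0.76. Sar1a, a GTPase of export vesicles, fell by 0.46 (its other probe set at -0.02), while its paralog Sar1b rose by 0.34. Limma adjusted p for these 4 ran from 0.0238 to 0.0478 with an intensity trend, and none passed with the default prior. Of 10 measured trimming peptidases, 0 were called higher and 1 lower: Blmh, a cysteine peptidase of the cytosol, fell by 0.58 (limma adjusted p = 0.00592). Erap1, which trims peptides inside the endoplasmic reticulum, differed by 0.20 on its brightest probe set. Its others were at -0.07 and -0.44, the latter below background. Nln differed by -0.53. Lnpep differed by -0.22 on its brighter probe set and by 0.56 on its other, so its direction is not settled. None of these passed.

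B2m, the light chain of every class I molecule, gave the brightest signal among the member probe sets. Its brighter probe set read 14.80 and 14.81 on the junctional arrays, against 15.49 and 15.28 on the peri-implant arrays. B2m rose by 0.58 (SE 0.07, 1.49-fold, limma adjusted p = 0.00147, 0.28 with the default prior). The dimmer probe set read 13.77 and 13.88 and then 14.48 and 14.08, again with no overlap. It rose by 0.45 (SE 0.11, limma adjusted p = 0.0355), but did not pass after median centring, with a pseudocount of 32 or without the robust prior. Without peri-implant array 1 the differences of the brighter and dimmer probe sets were 0.48 and 0.25. Hybridization control probe sets averaged 14.03 on that array, against 13.70 to 13.76 on the other arrays. Whether this shift enters the B2m differences was not tested.

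For the class I heavy chains and class I-like chains, 4 of 18 measured genes were higher and 0 lower, against 6.6% and 4.8% of all genes. Their median was 0.72, or 0.45 once every signal under the background level was set to that level. Many of the RT1 genes among them are near-identical copies, so their probe sets cannot be assigned to 1 gene with certainty. RT1-T24-4 read 10.65 and 10.56 and then 11.70 and 11.77, and rose by 1.13 (limma adjusted p = 0.000175). RT1-CE12 rose by 1.53 (8.16 and 8.37 to 9.82 and 9.77), and RT1-M3-1 by 1.13 (7.35 and 7.11 to 8.53 and 8.20). RT1-A rose from 7.24 and 6.16, the latter below background, to 8.07 and 8.73. None of the 4 passed with the default prior.

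Nlrc5, which drives transcription of class I and its loading genes, read 7.51 and 7.02 on the junctional arrays, against 8.57 and 7.48 on the peri-implant arrays. The groups overlapped, because peri-implant array 2 lay just below junctional array 1 and 1.09 below peri-implant array 1. Its difference was 0.76 (SE 0.38, 95% confidence interval from -0.09 to 1.6) and did not pass (limma adjusted p = 0.255). Leaving out peri-implant array 2 gave 1.30 and leaving out peri-implant array 1 gave 0.21.

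Among 28 measured interferon receptors, signalling proteins and transactivators, 4 were higher and 0 lower by the brightest probe set, against 6.6% and 4.8% of all genes. Their median was 0.17. Of their 20 other probe sets, 6 were called higher and 1 lower. The higher ones were 3 of Ifnar1, a chain of the type I interferon receptor (1.04, 0.91 and 0.89), and 1 each of the kinase Jak1 (0.54), Ifngr2 and Irf9. The lower one was of Irf2, a relative of Irf1 (-1.09). The brightest probe sets of Ifnar1, Jak1 and Irf2 differed by 0.16, 0.20 and 0.32, and none of these was called. A further Irf2 probe set was at 0.55, not called, so the direction of Irf2 is not settled. Ifngr2, a chain of the interferon-gamma receptor, rose by 1.53 (8.65 and 8.82 to 10.26 and 10.28, limma adjusted p = 0.000328), and its other probe set by 1.00. Nfkb1, an NF-kappaB subunit, rose by 1.20 (9.74 and 9.81 to 10.98 and 10.96). Socs3, a feedback inhibitor of cytokine signalling, rose by 1.28 and Irf9, which binds the interferon-stimulated response element, by 1.14, with 1.28 on its other probe set. Limma adjusted p for the latter 3 ran from 0.000277 to 0.0307, and none of the 4 passed with the default prior. Irf1, a factor that binds the same element, was outside the naming rule and was singled out after its value was seen: it read 9.23 and 9.76 on the junctional arrays, against 9.40 and 9.60 on the peri-implant arrays, a difference of 0.01 with full overlap (SE 0.19). Ifng, also picked after its values were seen, read 4.95, 2.23, 4.87 and 5.03, below background on every array.

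**Figure D4:**
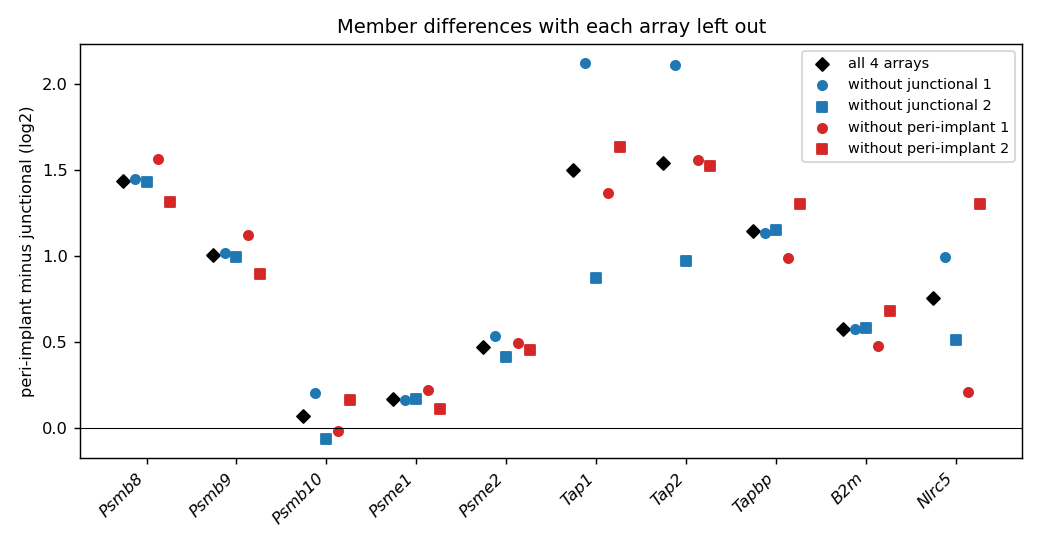
Difference of each member by its brighter probe set (peri-implant minus junctional, log2, vertical axis) with all 4 arrays (black) and with each array left out (blue for a junctional, red for a peri-implant array). Psmb8, Psmb9, Tapbp, Psme2 and B2m keep nearly the same height in all 5 fits, Tap1 and Tap2 move with the junctional array left out, Nlrc5 with the peri-implant array, and Psmb10 crosses 0.

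Pan-leukocyte, macrophage and dendritic cell, and neutrophil markers had median differences of 0.93, 0.93 and 1.09. With signals under the background level set to that level, these medians were 0.93, 0.68 and 0.79. T and NK cell markers and B and plasma cell markers had medians of 1.11 and 0.96 as deposited. Both medians were 0 with signals raised to background, where 8 of 16 and 5 of 6 genes lay below background on every array. Over all genes by the brightest probe set, 6.6% were called higher and 4.8% lower. Of 9 measured pan-leukocyte markers, 6 were higher and 0 lower, led by Rac2 (1.90), Coro1a (1.69), Arhgdib (1.68) and Lcp1 (1.42). The summed linear signal of these 9 was 2511 to 2659 in junctional and 5445 to 5459 in peri-implant arrays. Macrophage and dendritic cell markers were higher for 7 of 19 (led by Laptm5 at 1.65) and lower for 1 (Mrc1), with sums of 18170 to 20178 and 28285 to 30217. Neutrophil markers were higher for 6 of 10, with sums of 44833 to 45019 and 96865 to 110258, most of it from S100a8 and S100a9, which keratinocytes also express. Of 16 T and NK cell markers, Cd2 was higher and Cd247 lower, and the sums were 1719 to 2018 and 1869 to 1959. Below background on every array were 8 of them, Cd3d, Cd3e and Cd8b included. Cd3g (6.98 and 7.10), Cd4 (7.08 and 7.42) and Cd8a (6.43 and 6.96) were above background on the peri-implant arrays only, and none of these passed. Both peri-implant arrays lay above both junctional arrays for 6 of the 16 and below for 1, against 27.8% and 25.4% of all probe sets. Cd247 held much of these sums, and the other 15 genes summed to 344 and 726 on the junctional arrays, against 909 and 1006 on the peri-implant arrays, with no overlap. The sums of the 15 include the 8 genes below background on every array, so no level of T or NK cells is read from them. Of 6 B and plasma cell markers, 5 were below background on every array. No marker of these lists was at 0 on all 4 arrays. The part of leukocytes in the members' differences was not tested, and in bulk samples a different number of such cells and a different amount of RNA per cell cannot be told apart.

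Epithelial markers were bright in every sample. All 15 measured were above background, with summed signals of 333833 to 343719 in junctional and 370557 to 428347 in peri-implant arrays, and 4 (Krt17, Krt15, Krt4 and Pkp1) were higher. Of 9 junctional epithelium and enamel organ markers, 2 (Amelx and Ambn) were measured and lay below background on every array, so the identity of the junctional samples cannot be read from them. Fibroblast markers were higher for 3 of 10 and lower for 1. Their summed signals were 47581 to 47868 in junctional and 55271 to 55517 in peri-implant arrays, so fibroblast transcripts were present in every sample. Over all genes the shares were 6.6% higher and 4.8% lower. Of 9 endothelial markers 0 passed with either prior, and 4 had an unadjusted p under 0.05 with each prior. Between 54.6% and 56.8% of probe sets exceeded background on each array.

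The genes most like the members in pattern were sought among 8696 genes above background on all 4 arrays. Likeness was the Euclidean distance, over the 4 arrays, between a gene's profile centred on its own mean and the mean centred profile of the 10 member probe sets above background throughout. That mean profile was -0.28, -0.48, 0.47 and 0.29. The nearest was RT1-Ba, an MHC class II alpha chain (distance 0.04), which read 9.94 and 9.74 on the junctional arrays, against 10.65 and 10.51 on the peri-implant arrays. Rab11fip5, which acts in endosome recycling, and Mrpl50, a mitochondrial ribosomal protein, followed at 0.05 each. Then came Ifitm3, an interferon-induced membrane protein (0.05), and Eri1, an exonuclease (0.07). With only 4 arrays many genes share such a profile.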

How the data were processed

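Values were the log2 signals the authors deposited for 31099 probe sets on 4 arrays. The sources used here do not give the software or normalization behind them. Per the labels' protocols, RNA from microdissected frozen sections was extracted with a column kit with DNase treatment, amplified (Ovation system) and biotin-labelled. With 2 arrays a group, their number limits precision.

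Control probe sets (57) were left out. Genes came from the platform annotation (20826 probe sets with 1 symbol, 436 with several, 9780 with none), with symbols updated and positions taken from GRCr8. The members and gene lists were chosen with earlier results of these data known, as was the variance prior of the test. Groups were compared in R 4.3.3 with limma 3.58.1 (lmFit, eBayes with an intensity trend and a robust prior, two-sided), adjusted over 31042 probe sets at 0.05, with the default prior as an alternative. Lists were described by each gene's brightest probe set, with no set test. Named genes were all members, then up to 4 per list, those past the threshold first, then by size, and the 5 genes nearest in pattern; marker lists were summarised. Psmd14, Psmd7, Ifnar1, Jak1 and Irf2 were added after their values were seen. Lists also covered T and NK cell receptors for class I, of which 0 of 8 passed with either prior (2 at an unadjusted p under 0.05 with an intensity trend, 1 with the default prior) and 5 lay below background throughout.

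On simulated data with 31042 probe sets for this comparison, 250 changed at each size over 5 runs, the trend fit recovered 0.4%, 16.4%, 59.2% and 78.4% of log2 changes of 0.5, 1, 1.5 and 2, with 21 false among 407 calls. The default fit found 0 of them. Changes were added only to probe sets with a mean signal above those of Tap1, Tap2 and Nlrc5, so these shares do not cover signals as low as theirs. Each run changed fewer probe sets than the 1470 higher and 1292 lower called in the data, which makes the adjustment stricter. The simulated spread was also drawn wider on average than the observed trend. These shares therefore do not give the recovery in the real comparison. Of the promoter motifs searched, 1 is not reported here. Alternatives were 2 other priors, 2 normalizations, 3 treatments of low signals, 2 gene summaries, the replicate block and leaving out each array.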

Additional observations from a re-analysis of the deposited data

How the results depend on the processing

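No member probe set above background on all 4 arrays changed direction under an alternative except Psmb10, which ranged from -0.064 without junctional array 2 to 0.21 without junctional array 1 and was -0.02 without peri-implant array 1. The dimmer Tap1 probe set, below background, gave -0.63 and -1.17 when junctional array 1 or peri-implant array 1 was left out, and 3.02 without peri-implant array 2. The count of members called higher was 7. It ranged from 0 to 2 with 1 array left out, was 0 with the default prior, and was 5 to 7 under the other alternatives. Over the whole array, 1470 probe sets were higher and 1292 lower. With 1 array left out these counts ranged from 59 to 146 and from 14 to 207, and with the default prior they were 0 and 0 (smallest adjusted p = 0.125, 5247 at an unadjusted p under 0.05). With 1 row per gene, which tests fewer rows, 759 genes were lower by the brightest probe set, and 838 were higher and 584 lower by the mean of probe sets.

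The replicate numbers in the titles are shared by the groups. Deviations of same-numbered arrays from their group means correlated at 0.04 over probe sets, which does not show that the numbers pair the arrays. Both arrays numbered 1 held more probe sets at log2 0 (728 and 661) than both numbered 2 (377 and 381). With the replicate block, 2226 probe sets were higher and 1976 lower, and the same 7 members passed. Psmb8 minus Psmb5 kept its direction under each alternative run, and Psmb10 minus Psmb7 ranged from -0.053 without junctional array 2 to 0.14 without junctional array 1. Psmb9 minus Psmb6 was not run. The median difference of all probe sets lay between -0.024 and 0.065 under the alternatives run. Signals near background limit Tap1, Tap2 and Nlrc5.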

Other observations

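Outside the members, 343 measured genes with a RefSeq promoter window held the interferon-stimulated response element core, and 11348 did not. Of the former, 9.33% were higher in peri-implant epithelium and 2.62% lower with an intensity trend, and of the latter 6.3% and 4.88%. Among genes above background on all 4 arrays the shares higher were 13.3% of 211 and 8.16% of 7203. These shares were looked at after the members' promoters were seen and have no test. The spelling GAAAGCGAAA, shared by Psmb8, Psmb10, Psme2 and Tap2, stood in 9 other measured genes, of which 0 passed with limma and an intensity trend. Myd88, an adaptor of Toll-like receptors, came closest, with 9.06 and 8.98 on the junctional arrays, against 9.53 and 9.58 on the peri-implant arrays (limma adjusted p = 0.06). Calhm6 read 0.93 and 3.70 and then 6.32 and 6.01, below background throughout, and Lamp2, a lysosomal membrane protein, 12.85 and 13.04 and then 12.74 and 13.03.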
